A study of Danio rerio with 7 samples.

Results

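The proteasome subunit genes were followed in gata1-positive erythroid cells of zebrafish embryos, in ddx41 mutants and their siblings. A row of the count table was a member when the symbol of its Ensembl gene began, in any letter case, with psma, psmb, psmc, psmd or psme. Such a symbol was carried by 54 of the 32105 rows, and 52 remained after psmb8a and psmb9a were left out; the table of names calls those 2 rows PSMB8 and PSMB9, which RefSeq lists as other names of psmb8a and psmb9a. Many symbols are in capitals because the table of names gives them in human style. Some pairs of rows share a symbol, and these are told apart by their Ensembl ID. By the usual nomenclature 21 members belong to the core particle and 21 to the regulatory particle. A further 3 are assembly chaperones of the regulatory particle and 5 are alternative activators. The remaining 2, PSMC3IP and PSME3IP1, begin with the same letters but are named for partners of a subunit and are not subunits themselves.

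The mutant group held 3 libraries (replicates 2, 3 and 4) of ddx41 mutant embryos and the sibling group 4 libraries (replicates 1, 3, 4 and 5) of control siblings, all at 40 hours post fertilization. The ddx41 gene encodes a DEAD-box RNA helicase, and gata1 a transcription factor that red cell precursors need. The counts of all 7 libraries were deposited under the name gata1dsred, which reads as a gata1 DsRed reporter that the labels do not describe. The labels name no ddx41 allele. They also do not say whether the siblings were wild type or heterozygous, how many embryos were pooled, how the gata1-positive cells were isolated or whether libraries came from separate clutches, so each p-value rests on the spread among libraries, which may be technical. Every library was polyadenylated RNA made into a low-input library, with 11814324 to 14363255 counts.

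The proteasome is the protease of the cytosol and nucleus that degrades proteins tagged with ubiquitin. Its core particle is a barrel of stacked rings: outer rings of alpha subunits gate the entrance, and inner rings of beta subunits carry the cutting sites. The regulatory particle sits on the end of the barrel; the ATPases of its base unfold the substrate and thread it into the core, while its lid removes the ubiquitin chain. In maturing red cells the ubiquitin-proteasome system is known for clearing proteins that the finished cell does not keep. In mammals the transcription factor NFE2L1 raises the transcription of proteasome genes together when proteasome activity falls short.

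Most proteasome members did not pass the test for a difference between the groups, and 3 of them rose in the mutants. These were the alpha-ring genes PSMA2 and PSMA6 (ENSDARG00000019398) and the ATPase gene psmc1b, by 1.66-fold, 1.66-fold and 1.92-fold. Of the 52 members 47 passed the filter on low counts; among these 3 rose, none fell and 44 did not pass edgeR's quasi-likelihood test at an adjusted p of 0.05 (Benjamini-Hochberg over 18565 genes). That is 6.38% of the tested members, where 16.6% of all tested genes were called, 8.87% as higher and 7.69% as lower. At an unadjusted p below 0.05 there were 11 members of 47, against 29.8% of all genes. The groups did not overlap at 8 of 47 members, against 27.5% of all genes. The 95% interval of the change lay within 2-fold in either direction for 33 of 47 members, against 26.7% of all genes. A member that did not pass is not shown to be equal in the groups. In bulk RNA a lower level cannot be told apart from fewer cells of a type.

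Most fold changes lay above 0 in both particles and below 0 outside them. The median log2 fold change was 0.37 over 18 tested core members and 0.25 over 19 tested regulatory members, with 16 and 15 of them above 0. It was -0.27 over the 10 chaperones, activators and similarly named genes, with 1 above 0. Over all tested genes the median was 0.04, and 52% lay above 0. These medians are descriptions and were not tested.

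The number of members that rose rested on single libraries. It was 9 without ddx41 mutant replicate 4, but 1 without ddx41 mutant replicate 2, ddx41 mutant replicate 3, sibling replicate 4 or sibling replicate 5. PSMA2 was called in 6 of the 7 fits that left out a library, psmc1b in 3 and PSMA6 (ENSDARG00000019398) in 2.

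**Figure D1:**
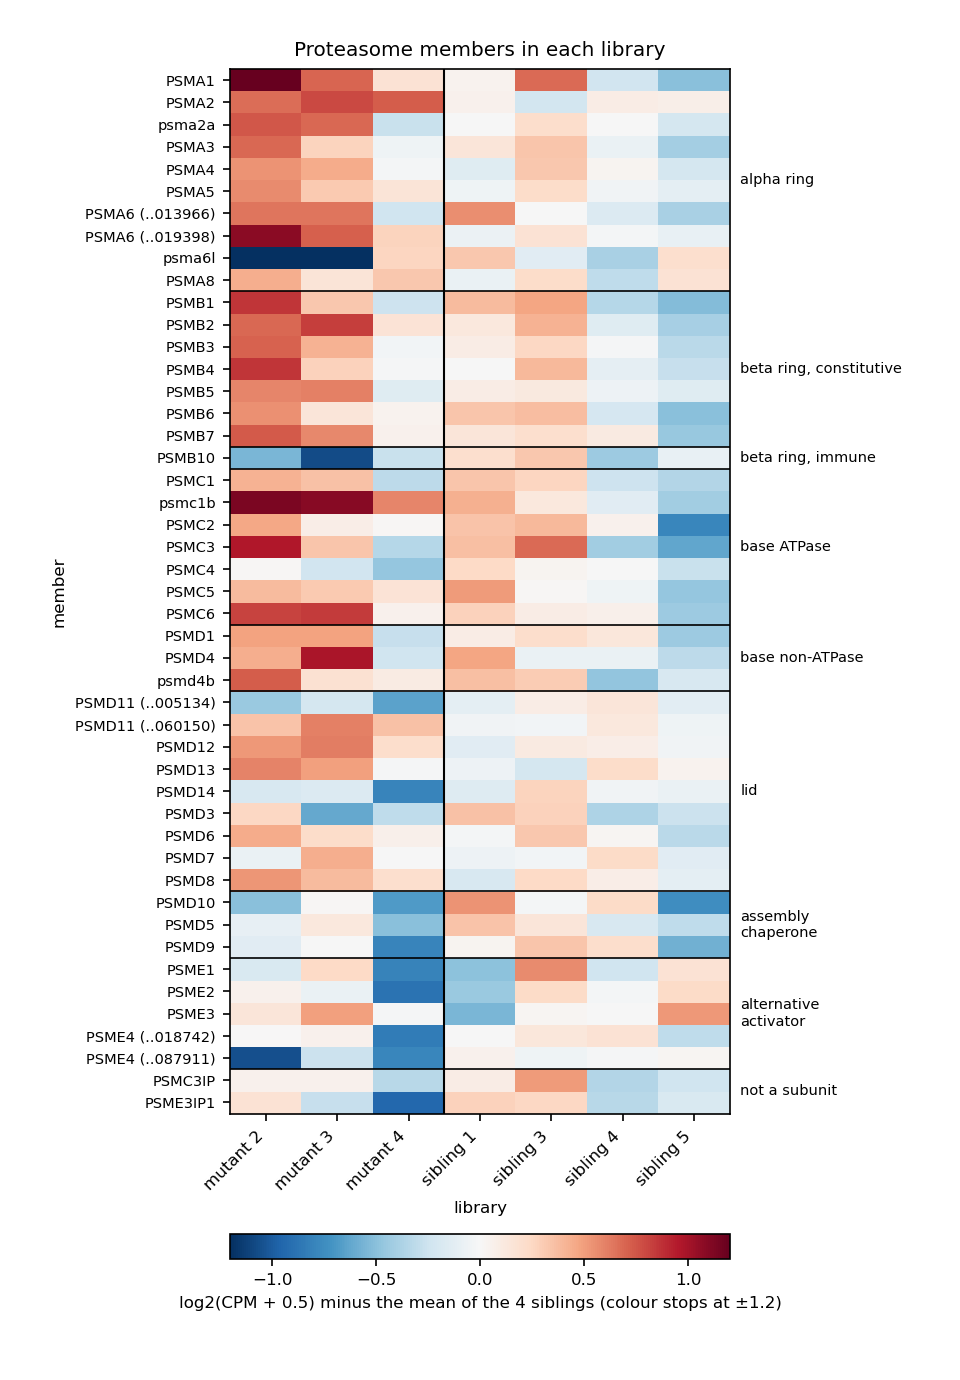
Each row is 1 of the 47 tested members, grouped by its place in the complex, and each column is a library, with the 3 ddx41 mutants left of the line and the 4 siblings right of it. Colour gives log2(CPM + 0.5) minus the sibling mean, red for higher and blue for lower; red fills most core and regulatory rows in mutant replicates 2 and 3, while mutant replicate 4 is paler and sibling replicate 5 is blue in most rows.

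In most libraries the members leaned to the same side of their own mean, though not all of them. Levels were expressed as CPM, counts scaled by library total and edgeR's TMM factor, and each member was set against its own mean over the 7 libraries. In ddx41 mutant replicates 2 and 3, 37 and 41 of 47 members lay above their own mean, against 10 in ddx41 mutant replicate 4. In the siblings the numbers were 25 in replicate 1, 34 in replicate 3, 12 in replicate 4 and 9 in replicate 5. Some members ran the other way, such as PSME3, with 8.72 CPM in sibling replicate 1 and 18.9 CPM in sibling replicate 5. The median deviation on the log2 scale was 0.35, 0.19 and -0.18 in mutant replicates 2, 3 and 4, and 0.02, 0.18, -0.17 and -0.34 in sibling replicates 1, 3, 4 and 5. Over all tested genes the same medians ran from -0.01 to 0.09, with the highest in mutant replicate 4, whose TMM factor was also the highest (1.1, against 0.919 to 1.03 in the other libraries). The part of the scaling in these deviations was not tested beyond the alternatives given in the closing section. Several marker sums also stood apart in mutant replicate 4, some higher and some lower. Its erythroid marker sum was 30431 CPM, against 57127 and 56360 CPM in mutant replicates 2 and 3 and 69766 to 91498 CPM in the siblings. Its neural marker sum was 234 CPM, against 59.1 and 65.7 CPM in mutant replicates 2 and 3 and 62.6 to 157 CPM in the siblings. Its epidermal sum (1439 CPM) and endothelial sum (186 CPM) were also the highest of the 7 libraries. Its neutrophil sum (2674 CPM) was the highest of the mutants but within the sibling range of 1494 to 2706 CPM. Its macrophage sum (624 CPM) was the highest of the mutants but below every sibling. Its thrombocyte sum (145 CPM) was the lowest of the 7 libraries. Its muscle sum (44.0 CPM) was near the 43.3 and 41.1 CPM of mutant replicates 2 and 3. Its yolk and liver sum (13.1 CPM) lay between those of mutant replicates 2 and 3 (20.3 and 6.30 CPM). The part of these markers in the low proteasome values of that library was not tested.

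Summed over its members, the core particle reached 1454, 1217 and 899 CPM in mutant replicates 2, 3 and 4, against 946, 1067, 825 and 710.2 CPM in sibling replicates 1, 3, 4 and 5. Mutant replicate 4 lay below siblings 1 and 3, so the groups overlapped. The regulatory particle gave 1308, 1234 and 908 CPM in the mutants, against 1059, 1113, 973 and 809 CPM in the siblings, and again mutant replicates 2 and 3 exceeded every sibling and replicate 4 did not. The rows of PSMD2, a base subunit, add nothing to this sum, as they held no counts. SEM1 and ADRM1, regulatory subunit genes whose symbols fall outside the rule, are not in it. The mutant mean was 1.34 times the sibling mean for the core and 1.16 times for the regulatory particle.

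Within each library the quotient of the core sum over the regulatory sum removes the scaling. It was 1.11, 0.986 and 0.991 in the mutants, against 0.893, 0.959, 0.848 and 0.878 in the siblings. The groups did not overlap, and the mean quotient was 1.03 ± 0.0711 in mutants (SD, n = 3) and 0.895 ± 0.0466 in siblings (SD, n = 4). The nearest values were mutant replicate 3 and sibling replicate 3. Levels of single genes did not overlap between the groups for 27.5% of all tested genes. The regulatory sum lacks SEM1 (mean 51.4 CPM in mutants, 34.7 CPM in siblings) and ADRM1 (58.6 and 59.8 CPM). A quotient with these genes was not computed. When each library was left out in turn, the mutant mean stayed between 1.1 and 1.18 times the sibling mean. This quotient is a score over members and was not tested; its level depends on gene length, so only its difference between libraries is read.

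**Figure D2:**
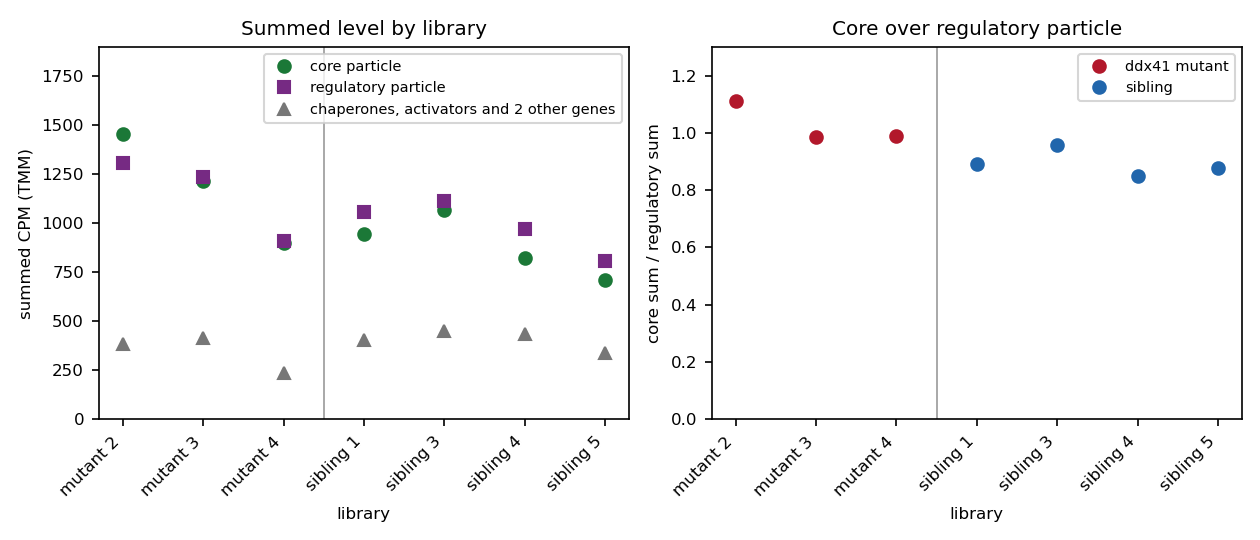
Left, summed CPM (TMM) of the core particle, the regulatory particle and the 10 other members in each library; right, the core sum over the regulatory sum in the 3 ddx41 mutants and the 4 siblings. Both sums in mutant replicate 4 lie within the range of the siblings, while all 3 mutant quotients (0.986 to 1.11) lie above all sibling quotients (0.848 to 0.959).

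The alpha ring held 10 tested rows, of which 2 rose and 8 did not pass the test, and 9 of the 10 fold changes were above 0. Of all tested genes 8.87% rose, 7.69% fell and 52% had fold changes above 0. These shares stand beside the counts of every class below. PSMA2 (ENSDARG00000035679), which encodes an alpha-ring subunit, had 53.3, 58.3 and 55.7 CPM in mutant replicates 2, 3 and 4, against 34.6, 28.6, 35.6 and 35.1 CPM in sibling replicates 1, 3, 4 and 5. The mutants agreed closely and every one lay above every sibling. The log2 fold change was 0.74 ± 0.18 (SE; edgeR adjusted p = 0.0126), and the adjusted p was 0.0559 without sibling replicate 3, the lowest of the siblings.

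PSMA6 (ENSDARG00000019398), one of 2 rows of that name and also an alpha-ring gene, had 113, 88.1 and 64.2 CPM in the mutants, against 50.8, 60.3, 52.5 and 50.04 CPM in the siblings. The groups did not overlap, but mutant replicate 4 stood only slightly above sibling replicate 3. Its log2 fold change was 0.73 ± 0.21 (SE; edgeR adjusted p = 0.0255). Leaving out mutant replicate 2, mutant replicate 3, sibling replicate 1, sibling replicate 4 or sibling replicate 5 gave adjusted p values of 0.178, 0.0634, 0.066, 0.0781 and 0.0736.

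Above 0, the largest alpha-ring fold change was that of PSMA1, with 67.9, 42.9 and 29.6 CPM in the mutants, against 27.1, 42.5, 22.3 and 18.4 CPM in the siblings. Its groups overlapped and it did not pass the test (log2 fold change 0.76 ± 0.30 SE, edgeR adjusted p = 0.102). PSMA3, PSMA4, PSMA5, PSMA8, psma2a and PSMA6 (ENSDARG00000013966) had log2 fold changes between 0.30 and 0.46, and none was called. PSMA8 takes the place of PSMA7 here: no row is named PSMA7, and RefSeq gives psma7 as another name of zebrafish psma8. The low row psma6l had 0.0833, 0.384 and 2.09 CPM in the mutants, against 2.22, 1.47, 1.15 and 2.0 CPM in the siblings. It was not called (log2 fold change -0.97, edgeR adjusted p = 0.481), and its 95% interval, from -2.75 to 0.82 on the log2 scale, is the widest among the members.

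Of the 7 constitutive beta-ring genes none passed the test, although all 7 fold changes were above 0 (log2 0.22 to 0.56). Each proteolytic activity of the barrel belongs to 1 of 3 of these subunits: PSMB5 carries the chymotrypsin-like site, PSMB6 the caspase-like site and PSMB7 the trypsin-like site. PSMB5 had 55.5, 56.2 and 33.2 CPM in the mutants, against 39.3, 39.9, 35.4 and 33.2 CPM in the siblings. PSMB6 had 56.6, 42.8 and 39.7 CPM in the mutants, against 48.9, 50.1, 33.4 and 27.1 CPM in the siblings. PSMB7 had 181, 162 and 113 CPM in the mutants, against 120.1, 125, 117 and 79.2 CPM in the siblings. In PSMB5 and PSMB7 mutant replicates 2 and 3 exceeded every sibling and replicate 4 did not, while in PSMB6 this held for replicate 2 alone. Their 95% intervals ran from -0.07 to 0.84, from -0.29 to 0.73 and from 0.002 to 0.92 on the log2 scale, so that a 2-fold change lay outside all 3 (edgeR adjusted p = 0.248, 0.591 and 0.165).

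PSMB2 had the smallest p of the constitutive beta genes. It had 95.1, 105 and 66.01 CPM in the mutants, against 64.3, 78.8, 53.2 and 44.6 CPM in the siblings, and mutant replicate 4 fell among the siblings (log2 fold change 0.56 ± 0.23 SE, edgeR adjusted p = 0.11). Without that library PSMB2 and PSMB7 passed, with adjusted p values of 0.0363 and 0.0469.

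Beta subunits of immune and thymic proteasomes replace the constitutive ones in particular cells. Of 4 such members only PSMB10, the inducible counterpart of PSMB7, passed the filter on low counts. It had 4.08, 2.69 and 5.08 CPM in the mutants, against 7.2, 7.91, 4.45 and 5.78 CPM in the siblings; the groups overlapped and it was not called (log2 fold change -0.68 ± 0.38 SE, edgeR adjusted p = 0.257). The row psmb12 had no count in any library. In psmb13a there was 1 count, in sibling replicate 3, and in psmb11b there was 1 count each in mutant replicate 3 and sibling replicate 3. A count of 0 allows up to 0.190 to 0.250 CPM, taking 3 counts as the limit in each library and counting error only. In the RefSeq table of assembly GRCz12tu psmb13a, psmb8a, psmb12 and psmb9a follow each other on chromosome 19. PSMB8 and PSMB9, the 2 rows left out by the rule, held no count in any mutant; PSMB8 had 1 count, in sibling replicate 5, and PSMB9 had 5 in sibling replicate 3 and 14 in sibling replicate 5.

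**Figure D3:**
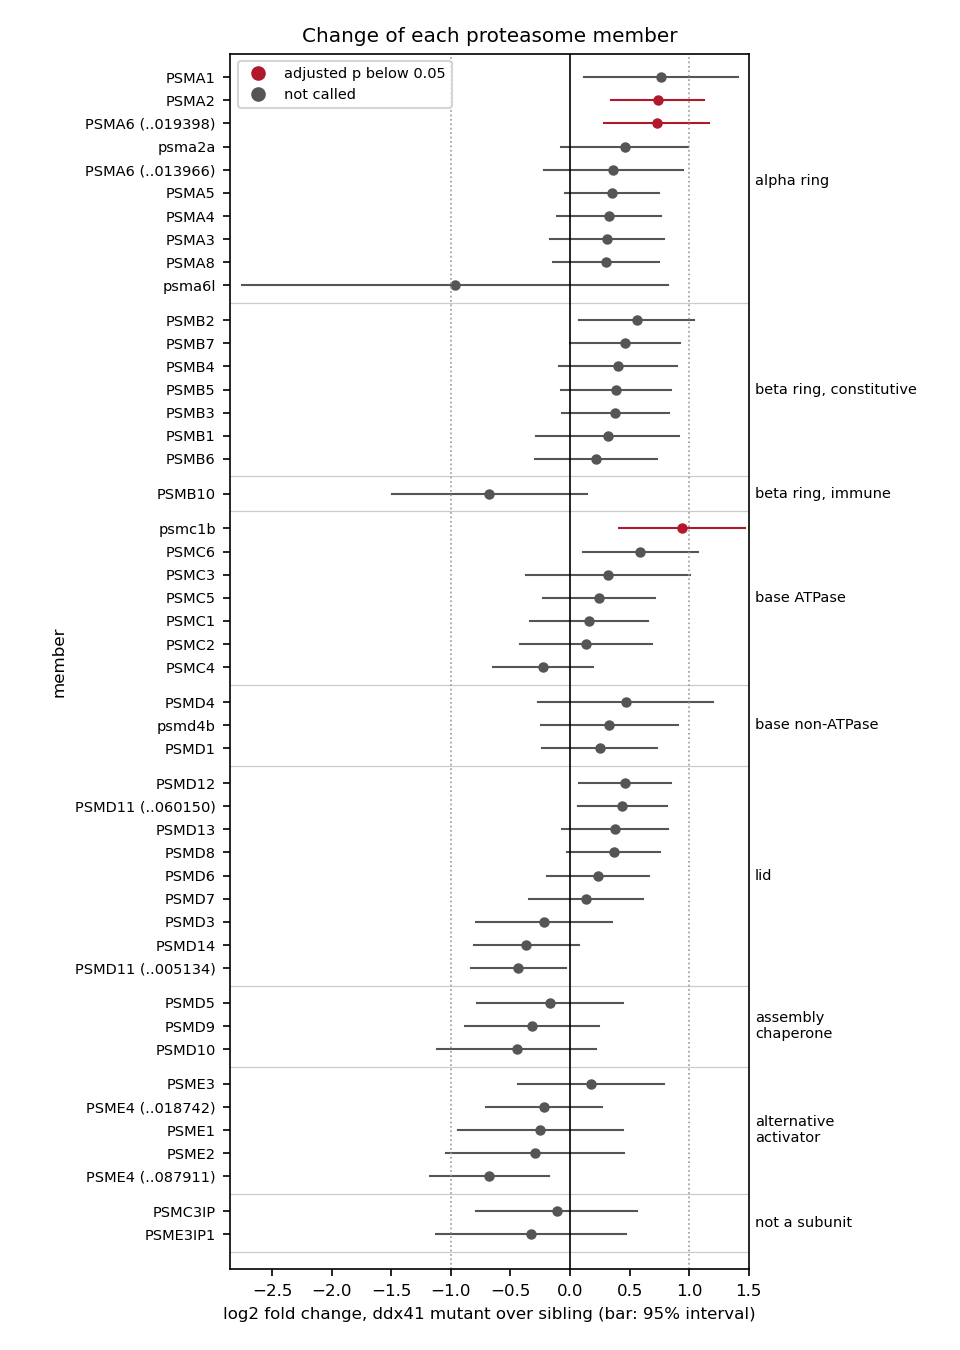
Log2 fold change of each tested member, ddx41 mutant over sibling, with its 95% interval, sorted within each class; red marks the 3 members with an adjusted p below 0.05 and dotted lines mark 2-fold changes. All constitutive beta genes and all alpha genes except psma6l lie right of 0, the chaperones all lie left of it, and 14 of the 47 intervals cross a 2-fold line.

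In the base of the regulatory particle 1 of 7 ATPase rows rose and 6 did not pass the test, where 8.87% of all tested genes rose. The riser, psmc1b, is a copy of PSMC1, and its product belongs to the ring that unfolds substrates. It had 37.6, 36.5 and 25.5 CPM in the mutants, against 22.8, 18.5, 15.3 and 12.5 CPM in the siblings, and the groups did not overlap. Its log2 fold change was 0.94 ± 0.25 (SE; edgeR adjusted p = 0.0175). It no longer passed without mutant replicate 2 (adjusted p = 0.083), mutant replicate 3 (0.0649), sibling replicate 4 (0.0609) or sibling replicate 5 (0.056).

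Among the other ATPases PSMC6 came nearest to the threshold, with 141, 143 and 83.1 CPM in the mutants, against 97.1, 85.3, 83.6 and 59.1 CPM in the siblings. Mutant replicate 4 lay below 3 of the 4 siblings (log2 fold change 0.59 ± 0.23 SE, edgeR adjusted p = 0.0919). PSMC3 varied widely within each group: its highest library held 2.47 times its lowest in the mutants and also in the siblings (edgeR adjusted p = 0.559). PSMC4 was the one ATPase row with a fold change below 0 (log2 -0.23, edgeR adjusted p = 0.485).

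The base also holds non-ATPase subunits, which bind ubiquitin and its carriers. Of 5 such rows 3 were tested and none was called. PSMD4, a ubiquitin receptor, had 10.5, 15.6 and 6.41 CPM in the mutants, against 10.8, 7.21, 7.21 and 6.07 CPM in the siblings, and its groups overlapped (log2 fold change 0.47 ± 0.34 SE, edgeR adjusted p = 0.397). PSMD1, a scaffold of the base, had a log2 fold change of 0.25. Both rows named PSMD2 were listed at 0 in all 7 libraries, and RefSeq lists 1 gene of that name; a row at 0 here does not show that the transcript was absent, and the reason was not tested.

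The lid held 9 tested rows, all uncalled, with 6 fold changes above 0 and 3 below. The 95% interval of every lid row lay within 2-fold in either direction. PSMD12, a scaffold subunit of the lid, had 98.5, 105 and 79.3 CPM in the mutants, against 61.97, 73.5, 72.2 and 66.2 CPM in the siblings. All 3 mutants exceeded all siblings, but the adjusted p was 0.0978 (edgeR; log2 fold change 0.46 ± 0.18 SE). PSMD14, the deubiquitinase that takes the ubiquitin chain off the substrate, had 73.9, 75.5 and 48.5 CPM in the mutants, against 76.1, 102, 81.99 and 80.2 CPM in the siblings. Its mutants lay below its siblings without overlap, by a small margin in replicates 2 and 3, and it did not pass the test (log2 fold change -0.37 ± 0.21 SE, edgeR adjusted p = 0.253). PSMD8, PSMD13 and PSMD3 had log2 fold changes of 0.36, 0.38 and -0.22, each with a 95% interval that included 0.

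**Figure D4:**
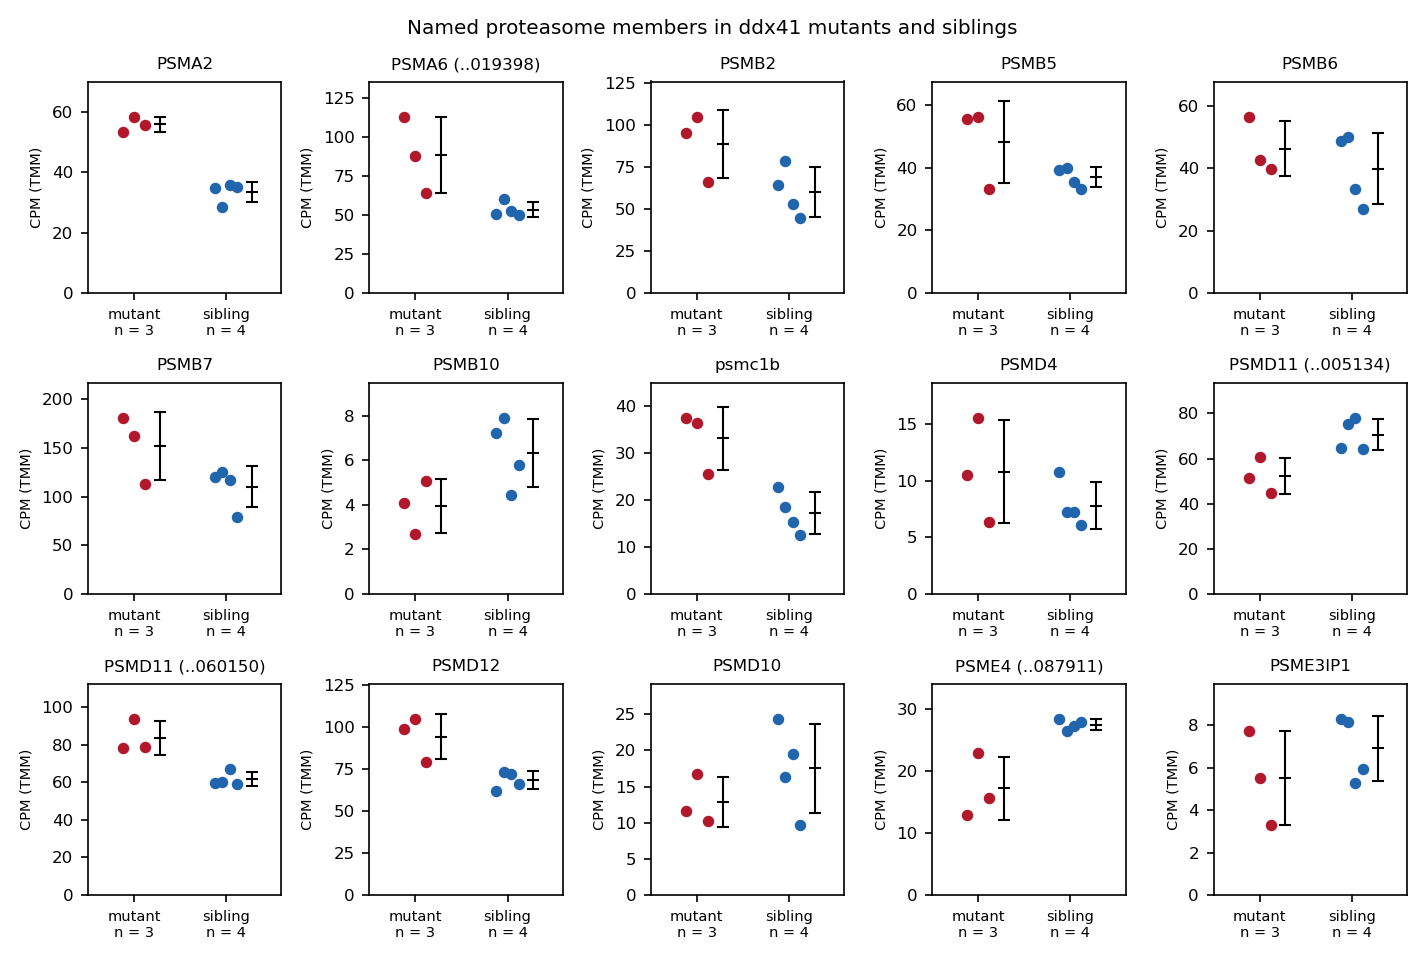
CPM (TMM) of 15 named members in each library, with ddx41 mutants (n = 3, red) left of siblings (n = 4, blue); black marks give the mean and SD. PSMA2, PSMA6 (ENSDARG00000019398), psmc1b, both PSMD11 rows, PSMD12 and PSME4 (ENSDARG00000087911) show no overlap between the groups, while in PSMB5, PSMB6 and PSMB7 at least 1 mutant lies among the siblings.

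Zebrafish carry 2 copies of several subunit genes, and 6 pairs of rows stood for copies of 1 subunit. For each pair the ratio of the rows was taken in every library, with the row of the larger fold change on top, which cancels the scaling. In 2 of 6 pairs the ratios of mutants and siblings did not overlap. At the level of single genes the groups did not overlap for 27.5% of all tested genes, and ratios of other gene pairs were not examined. The PSMD11 pair, a lid subunit, and the PSMC1 pair were singled out after their values were seen.

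In the PSMD11 pair ENSDARG00000060150 had 78.2, 93.8 and 78.6 CPM in the mutants, against 59.7, 60.2, 67.3 and 59.2 CPM in the siblings. The other row, ENSDARG00000005134, had 51.6, 60.6 and 44.8 CPM in the mutants, against 64.9, 75.1, 78.1 and 64.5 CPM in the siblings. Neither row passed the test alone (log2 fold changes 0.44 and -0.43, edgeR adjusted p = 0.103 and 0.134), and neither overlapped between the groups. Their ratio was 1.52, 1.55 and 1.75 in the mutants, against 0.92, 0.802, 0.861 and 0.918 in the siblings, so each group was tight and the groups stood apart. Their sum was nearly level, at 136 ± 16.4 CPM in mutants (SD, n = 3) and 132 ± 10.2 CPM in siblings (SD, n = 4).

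The ratio of psmc1b to PSMC1 was 0.445, 0.453 and 0.504 in the mutants, against 0.288, 0.245, 0.289 and 0.253 in the siblings. PSMC1 itself was not called (log2 fold change 0.16 ± 0.23 SE, edgeR adjusted p = 0.701). The mean log2 ratio differed by 0.80 for this pair and by 0.88 for PSMD11, and with any 1 library left out it stayed between 0.75 and 0.84 and between 0.81 and 0.92. An exact permutation test over samples, with 35 possible assignments of the labels, gave a two-sided p of 0.0286 for each, the smallest that this design can give, and 0.0858 after Benjamini-Hochberg adjustment over the 6 pairs. No pair could therefore pass 0.05 unless 4 or more of them reached that smallest value.

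For the other pairs the ratios overlapped: PSMA2 over psma2a, the PSMA6 rows, PSMD4 over psmd4b and the PSME4 rows had adjusted permutation p values of 0.515, 0.429, 0.857 and 0.286. The PSMA2 pair shows how library-bound this can be, with a ratio of 2.72 in mutant replicate 4 and of 1.27 and 1.45 in the other mutants, against 0.995 to 1.65 in the siblings. The counting step may divide the reads of similar copies between their rows, and its effect on these ratios was not tested.

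**Figure D5:**
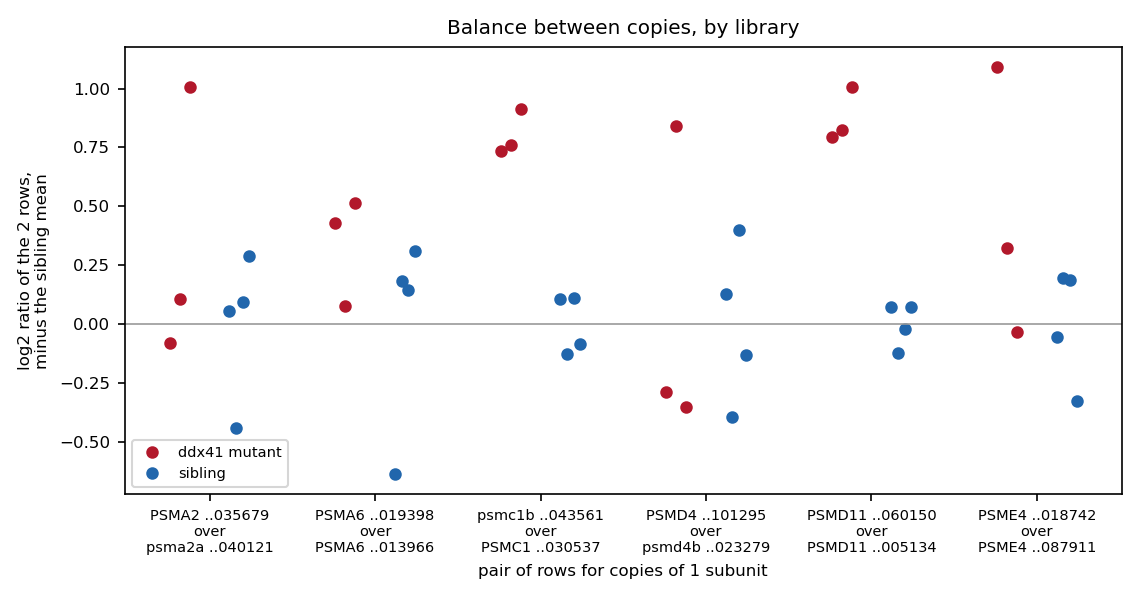
For each of 6 pairs of rows that stand for copies of 1 subunit, the log2 ratio of the rows in each library is plotted relative to the sibling mean, ddx41 mutants (red) left of siblings (blue). The mutant points of the psmc1b and PSMD11 pairs lie above all their sibling points, and the other 4 pairs overlap.

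Members outside both particles tended to the other side of 0. The assembly chaperones PSMD5, PSMD9 and PSMD10 help the base to form and are not part of the finished proteasome, and all 3 had fold changes below 0 without passing the test (log2 -0.17, -0.32 and -0.45). PSMD10, known as gankyrin, had 11.6, 16.7 and 10.2 CPM in the mutants, against 24.4, 16.4, 19.6 and 9.71 CPM in the siblings. Its siblings spread over 2.51-fold, the widest among the tested members, and enclosed all the mutants (edgeR adjusted p = 0.368).

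Alternative activators open the core without the regulatory particle. Of 5 rows none was called and 4 had fold changes below 0. PSME4 encodes the activator PA200, and its row ENSDARG00000087911 had 13.0, 22.9 and 15.7 CPM in the mutants, against 28.5, 26.4, 27.2 and 27.9 CPM in the siblings. The siblings were the tightest of any member, and every mutant lay below them (log2 fold change -0.68 ± 0.23 SE, edgeR adjusted p = 0.0628). This row passed as lower with upper quartile scaling (adjusted p = 0.0487), limma-voom (0.0465), DESeq2 (0.0362) and without mutant replicate 3 (0.0135). The other PSME4 row, ENSDARG00000018742, had 269, 278 and 149.5 CPM in the mutants, against 267, 295, 301.5 and 217 CPM in the siblings, with overlap (edgeR adjusted p = 0.572). PSME1 and PSME2, which form the interferon-inducible activator, had log2 fold changes of -0.25 and -0.30, and PSME3, the nuclear activator, 0.18.

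PSMC3IP and PSME3IP1, the 2 members that are not subunits, had log2 fold changes of -0.11 and -0.33. PSME3IP1 had 7.75, 5.53 and 3.30 CPM in the mutants, against 8.31, 8.14, 5.29 and 5.92 CPM in the siblings, and its groups overlapped (edgeR adjusted p = 0.605).

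Genes that build, regulate or feed the proteasome were counted from lists set down beside the members. Among all tested genes 8.87% were called higher and 7.69% lower. Of 2 regulatory subunits with other names and of 4 core assembly chaperones none was called; the lid subunit gene SEM1 had 51.4 ± 8.97 CPM in mutants (SD, n = 3) and 34.7 ± 5.79 CPM in siblings (SD, n = 4; edgeR adjusted p = 0.0753). Of 15 associated factors 1 rose, fbxo7, an F-box gene whose human product binds the proteasome regulator PSMF1. It had 15.2, 18.7 and 11.1 CPM in the mutants, against 1.94, 2.56, 2.45 and 2.0 CPM in the siblings, a 6.67-fold difference with no overlap (log2 fold change 2.74 ± 0.33 SE, edgeR adjusted p = 5.37e-05). PSMF1 itself was not called, at 4.89 ± 1.64 CPM in mutants and 2.46 ± 0.925 CPM in siblings (SD, n = 3 and 4; edgeR adjusted p = 0.165).

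In the list of the pathway that drives proteasome transcription 4 of 15 genes rose and none fell, where 8.87% of all genes rose. The median log2 fold change of this list was 0.04, the same as over all tested genes (0.04). Whether the pathway was more active was not tested. VCP, the ATPase that draws ubiquitinated proteins out of membranes and complexes, had 345, 364 and 232 CPM in the mutants, against 187, 179, 182 and 137 CPM in the siblings (edgeR adjusted p = 0.00857). The small Maf gene maff had 32.7, 37.8 and 39.5 CPM in the mutants, against 18.6, 19.5, 19.4 and 24.4 CPM in the siblings (edgeR adjusted p = 0.0109). In both genes every mutant exceeded every sibling.

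NFE2L1 (ENSDARG00000030616) rose too, with 8.33, 20.7 and 9.33 CPM in the mutants, against 4.85, 7.52, 5.29 and 5.07 CPM in the siblings (edgeR adjusted p = 0.0361). It rested on mutant replicate 3, without which its adjusted p was 0.299; without sibling replicate 1, 4 or 5 the values were 0.0865, 0.0885 and 0.0795, and limma-voom gave 0.0557. Its copy nfe2l1b was not called and lay on the other side of 0, at 45.1 ± 1.86 CPM in mutants and 57.7 ± 8.23 CPM in siblings (SD, n = 3 and 4; edgeR adjusted p = 0.224). The fourth gene, keap1a, named after its values were seen, encodes an adaptor that marks NFE2L2 for degradation and had 89.9 ± 18.7 CPM in mutants and 58.7 ± 2.65 CPM in siblings (SD, n = 3 and 4; edgeR adjusted p = 0.0367). The other copy, KEAP1, was not called and lay on the other side of 0 (log2 fold change -0.79 ± 0.28 SE, edgeR adjusted p = 0.0676).

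The list of ubiquitin and its activating enzymes held 8 rows, including faub, which encodes neither. Of these 8 rows 1 fell and none rose, where 7.69% of all tested genes fell and 8.87% rose. The row that fell was ubc, a gene of tandem ubiquitin repeats. It had 165, 156 and 141 CPM in the mutants, against 280.1, 266, 313 and 253 CPM in the siblings, or 1.81-fold less (edgeR adjusted p = 0.00462). Of 15 tested genes of VCP adaptors and degradation at the endoplasmic reticulum 1 rose and 1 fell, beside the same shares of all tested genes. DERL1 had 82.0, 74.5 and 62.6 CPM in the mutants, against 41.7, 35.8, 37.1 and 28.7 CPM in the siblings (edgeR adjusted p = 0.00232). DERL3, which like DERL1 encodes a derlin of that membrane, had 8.83, 10.7 and 6.73 CPM in the mutants, against 19.5, 18.2, 32.9 and 17.8 CPM in the siblings (edgeR adjusted p = 0.00608). In each derlin gene the groups did not overlap.

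Markers of the labelled cell type and of other cells were summed in each library. Their calls stand beside 8.87% of all tested genes called higher and 7.69% called lower. Erythroid markers were abundant in every library, led by the globin gene hbae3. Over 11 rows they gave 30431 to 57127 CPM in mutants and 69766 to 91498 CPM in siblings, without overlap. In mutants hbae3 was lower and 1 of 2 rows of the anion exchanger gene SLC4A1 higher. That SLC4A1 row averaged 195 CPM in mutants and 51.8 CPM in siblings. The other row held far more, 7970 CPM in mutants and 10997 CPM in siblings. It was lower without overlap but not called (log2 fold change -0.46, edgeR adjusted p = 0.203). The listed marker was slc4a1a, and both SLC4A1 rows came in through the search without its last letter. Macrophage markers gave 324 to 624 CPM in mutants and 743 to 1513 CPM in siblings, with 5 of 12 tested rows lower. Endothelial markers gave 90.7 to 186 CPM in mutants and 38.4 to 64.7 CPM in siblings, with 1 of 5 higher. That row, stab2, averaged 63.7 CPM in mutants and 7.33 CPM in siblings and was the largest endothelial row in every mutant. Of the uncalled endothelial rows TIE1 did not overlap between the groups, while FLI1, cdh5 and kdrl did. Muscle sums were 41.1 to 44.0 CPM in mutants and 49.8 to 92.0 CPM in siblings, without overlap, with 3 of 7 lower. Uncalled muscle rows above 0 were TNNT3 (ENSDARG00000068457; 14.9 CPM in mutants, 9.25 CPM in siblings, no overlap) and ACTA1 (ENSDARG00000036371; log2 fold change 0.84, with overlap). Thrombocyte sums were 145 to 263 CPM in mutants and 274 to 348 CPM in siblings, without overlap, with 1 of 4 lower. That row was gp9, at 39.1 CPM in mutants and 123 CPM in siblings. The other tested thrombocyte rows overlapped between the groups. Neutrophil, neural, epidermal, and yolk and liver sums overlapped, with 1 of 4 higher, none of 6 called, 2 of 5 higher, and 1 higher and 1 lower of 4. One thrombocyte row, THBS1, was at 0 in all libraries, and itga2b was at 0 in the mutants and in sibling replicates 1 and 3, with 11 and 1 counts in sibling replicates 4 and 5. The part of these cells in the proteasome values was not tested.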

How the data were processed

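The authors deposited whole-number counts, with 1 row per Ensembl gene and 1 column for each of 7 libraries (3 ddx41 mutant, 4 sibling). Build GRCz10 and the tools STAR 2.4.2a, Cufflinks 2.2.1, DESeq2, Picard and Trim Galore stand in the submitters' processing notes, without roles. How reads were counted, and whether by strand, is not given in the sources used here. Rows of overlapping, antisense or similar genes may therefore share reads. Symbols came from a table of IDs and names (26269 of 32105 rows). The ddx41 transcript was not analysed here.

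The test was edgeR 4.0.16 in R 4.3.3: filterByExpr by group (minimum count 10, total 15; 18565 genes), TMM scaling, glmQLFit and glmQLFTest, no block, Benjamini-Hochberg adjustment at 0.05. The SE is the log2 fold change divided by the root of its F statistic, and 95% intervals use the fit's degrees of freedom without adjustment for multiple genes. The common biological coefficient of variation was 0.377. No library was a duplicate of another: within groups, chi-square divided by its degrees of freedom was 16 to 57.8 for each pair. DESeq2 1.42.0 and limma 3.58.1 served as alternatives. The steps were tested on simulated data.

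Members, lists and tests were chosen with earlier results of these data known, so lists were described and not tested. Values per library were given for PSMB5, PSMB6, PSMB7, the called members, and the member with the smallest p in each class; of the other lists, up to 3 called genes a direction. PSMA1, psma6l, PSMC6, PSMD14, the second PSME4 row, SEM1, ADRM1, PSMF1, nfe2l1b, keap1a, KEAP1 and both PSMD11 rows were added after their values were seen. So were PSMC3, PSME3 and the single marker rows that are named. Symbols of the lists without a match were searched again without their last letter. Promoter sequences were not used here.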

Additional observations from a re-analysis of the deposited data

Results flagged for a closer look

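In 51 sets of sibling values, for the 47 tested members and 4 summed measures, the highest or lowest library was set against the gap to its nearest neighbour as a share of the range, which chance exceeds in about 1 of 20 groups. It did so in 2. In PSMA2 sibling replicate 3 lay lowest, at 28.6 CPM, with a gap of 0.861 of the sibling range. In PSMD11 (ENSDARG00000060150) sibling replicate 4 lay highest, at 67.3 CPM, with a gap of 0.871 of the range. The mutants, a group of 3, were not examined in this way.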

How the results depend on the processing

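PSMA2, PSMA6 (ENSDARG00000019398) and psmc1b were called under DESeq2 size factors, upper quartile scaling, library totals alone, no filter on low counts, a filter of 1 CPM in 3 libraries, DESeq2, limma-voom and robust fitting. With library totals alone 6 members were higher, 4 of them regulatory. With upper quartile scaling, DESeq2 and limma-voom 1 member was lower, the PSME4 row ENSDARG00000087911.

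With the replicate block 0 members were higher, 0 of the core and 0 of the regulatory particle; the count at an unadjusted p below 0.05 was 2, the median of the core was 0.13, that of all members 0.01 (25 of 47 above 0) and that of all genes 0.05, and 1023 of all genes were called. The block also ended the calls of VCP, maff, NFE2L1 (ENSDARG00000030616), ubc and DERL1 (edgeR adjusted p = 0.457, 0.146, 0.244, 0.221 and 0.177), while fbxo7 and DERL3 were called. Only numbers 3 and 4 occur in both groups, and the labels state no pairing. The deviations of same-numbered libraries correlated at -0.02 and -0.18. Correlations of differently numbered libraries were not computed, so these values cannot show whether libraries were paired. Numbers 1, 2 and 5 occur in a single group, so the blocked comparison rested on replicates 3 and 4 of each group. A lost call there does not show that a gene is unchanged. Loss through a pairing cannot be told apart from loss through the fewer libraries compared.

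With 1 library left out the number of members that were higher ran from 1 to 9, of core members from 1 to 6, of regulatory members from 0 to 3, and of lower members from 0 to 1, and 1888 to 2835 of all genes were called. The core median ran from 0.22 to 0.57 and the regulatory median from 0.12 to 0.44. The log2 difference of the PSMD4 pair ran from -0.32 without mutant replicate 3 to 0.28 without mutant replicate 4, and was -0.07 without sibling replicate 3. Leaving out libraries for the pairs was chosen after seeing the data. The planned look at promoter motifs was not run. Depth limits what can be read from the immune and thymic beta rows with 0 to 2 counts in all. The reason for these low counts and for the empty PSMD2 rows was not tested.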
